A study of Mus musculus with 1049 samples.

Results

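Interferon-stimulated genes are the genes that cells switch on after an interferon signal, and 41 of them were described here in dermal fibroblasts of newborn, young and old mice. The members were a list of mouse symbols: genes of interferon signalling and interferon-induced genes, with the class I antigen presentation genes left out. All 41 were matched by identifier among 51777 gene entries common to the deposited tables, and all 41 were among the 16684 genes that passed the filter on low counts and were tested. The cells came from C57Bl/6 mice of 3 ages: newborn mice of 1.5 or 2.5 days, young mice of 2 months and old mice of 18 months, with no transgene or treatment named. The protocol names female littermates for newborn skin and gives no sex for the adult mice, so age and any difference in sex cannot be told apart. Skin was digested with collagenase, and single cells were sorted after staining for CD45, CD117, EpCam and CD31, proteins of other cell types, and for Pdgfra and CD34, proteins of fibroblasts. Full-length cDNA of single cells was sequenced with Smart-seq2, a plate-based method without molecular identifiers, in 2 experiments that each held all 3 ages. Mice are not named in the labels, which give only the experiment, so the reads of all kept cells of one age in one experiment were added, n = 2 sums per age, and p-values measure only the spread between these sums.

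The 735 kept cells were 249 newborn, 246 young and 240 old cells with 246349 to 4331293 reads each, and the sums held 119682449 to 195324769 reads. Fibroblast markers were present throughout (Col1a1, Col1a2, Dcn, Lum, Pdgfra and Cd34 together 44000 to 53600 CPM, counts per 1000000 reads, in newborn sums, 167000 to 168000 in young sums and 136000 to 145000 in old sums). All 5 lymphocyte markers, among them Ptprc (CD45), and all 4 dendritic and Langerhans cell markers had 0 reads in all 735 cells, so up to 0.408% of cells could carry a read of each. Of 7 macrophage markers, Adgre1, C1qa and Cx3cr1 had 0 reads, and the list summed to 0 to 2.09 CPM in newborn sums, 45.7 to 170 CPM in young sums and 11.5 to 26.8 CPM in old sums, nearly all of it Csf1r and Cd68. Of 4 endothelial markers Cdh5 had 0 reads, and the list summed to 15.1 to 23.5 CPM in newborn, 72.5 to 85.4 CPM in young and 53.8 to 76.7 CPM in old sums, led in adult cells by Plvap. The 4 epithelial markers summed to 17.1 to 33.3 CPM in newborn, 43.6 to 47.3 CPM in young and 57.1 to 70.9 CPM in old sums, with Krt10 holding most of it and Epcam at 0 reads in adult cells. The part of the endothelial and epithelial reads in the members' levels was not tested. Intervals and limits of this kind cover the counting of reads or cells only.

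Interferons bind receptors whose kinases Jak1, Jak2 and Tyk2 phosphorylate Stat proteins. Type I interferon acts on its target genes through the interferon-stimulated response element (ISRE), bound by a complex that holds Irf9, while type II interferon acts through the gamma-activated site (GAS). The targets block viruses at entry, in replication and by sensing their nucleic acids, and fibroblasts are both a source and a target of type I interferon.

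Promoter sequence is shown first, since it is a feature that many members share and that the list did not use. RefSeq windows of GRCm38.p6, from 250 bases before to 50 bases after each gene's start, were found for 32 of the 41 members and for 27025 gene symbols in all. No window was matched for Gbp6, Ifi27, Iigp1, Mx1, Mx2, Parp14, Parp9, Usp18 and Zbp1. The ISRE core, GAAA followed by any 2 bases and GAAA again, was searched on both strands (TTTC, any 2 bases, TTTC on the other) and was present in 18 of 32 members (56.2%), against 3.99% of all symbols. The GAS letters TTCNNNGAA, which read the same on both strands, were present in 11 of 32 members (34.4%), against 9.55% of all symbols. Both motifs were present in 6 members (18.8%), against 0.614% of all symbols, and the motifs can overlap. A match is a run of letters and no evidence of binding in these cells.

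The following 7 members are printed with the stretch of 120 bases before the start 5′ to 3′ in the direction of the gene, because they carry the ISRE upstream of the start and stand for the guanylate-binding proteins, the Ifit genes, the ubiquitin-like Isg15, the Ifitm genes and the immunity-related GTPases. Capitals mark ISRE and GAS letters.
Gbp2: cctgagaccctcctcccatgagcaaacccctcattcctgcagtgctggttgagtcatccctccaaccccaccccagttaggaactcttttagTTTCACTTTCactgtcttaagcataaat
Gbp3: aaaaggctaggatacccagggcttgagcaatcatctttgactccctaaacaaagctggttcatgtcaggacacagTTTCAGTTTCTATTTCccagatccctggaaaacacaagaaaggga
Ifit1: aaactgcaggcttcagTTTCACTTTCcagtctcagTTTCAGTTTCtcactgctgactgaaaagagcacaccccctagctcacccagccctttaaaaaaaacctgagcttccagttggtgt
Isg15: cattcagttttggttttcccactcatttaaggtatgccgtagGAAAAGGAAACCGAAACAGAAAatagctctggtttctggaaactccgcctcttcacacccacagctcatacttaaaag
Ifitm2: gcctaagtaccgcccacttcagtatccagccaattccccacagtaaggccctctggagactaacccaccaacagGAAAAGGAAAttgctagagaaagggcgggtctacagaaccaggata
Igtp: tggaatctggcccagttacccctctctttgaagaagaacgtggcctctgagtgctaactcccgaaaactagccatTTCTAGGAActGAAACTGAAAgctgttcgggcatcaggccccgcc
Irgm2: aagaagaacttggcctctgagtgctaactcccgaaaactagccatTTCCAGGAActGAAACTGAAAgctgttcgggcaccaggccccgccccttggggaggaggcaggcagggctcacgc

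The windows lie at chr3:142620512-142620631 on the plus strand for Gbp2, which ends 31 bases before the RefSeq start, chr3:142559924-142560043 on the plus strand for Gbp3, chr19:34640769-34640888 on the plus strand for Ifit1 and chr4:156200819-156200938 on the minus strand for Isg15. They lie at chr7:140955962-140956081 on the minus strand for Ifitm2, chr11:58199436-58199555 on the plus strand for Igtp and chr11:58214857-58214976 on the plus strand for Irgm2. By GENCODE M21, 30 bases of the Gbp2 window, 18 of the Gbp3, 18 of the Ifit1 and 26 of the Ifitm2 window are exonic in a transcript with an earlier start, and the Isg15, Igtp and Irgm2 windows hold no exon of the gene. Isg15 held 3 overlapping ISRE matches at -78, -72 and -66 from the start, and Ifit1 held matches at -104 and -85. In Igtp a GAS match at -45 stood next to an ISRE match at -34, and in Irgm2 the same order was found at -75 and -64. Ifitm3, the member with the highest adult level, held its ISRE matches at 3 and 20 bases past the start. Irf7, Irf9, Oasl2, Trim25, Dtx3l, Xaf1, Sp100, Psme2 and Cd274 held neither motif in this window.

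Summed over cells, interferon-stimulated genes were higher in both adult ages than in newborn cells, with 5 members past the threshold. Of all genes tested 0.719% were called higher in young and 0.797% in old against newborn cells. Between old and young cells the test called 0 members, where it called 0% of all genes tested. The 41 members together summed to 2013 and 1703 CPM in the newborn sums of experiments 1 and 2, 6385 and 7526 CPM in the young sums and 7079 and 7480 CPM in the old sums. Ifitm2 and Ifitm3, which block virus entry at the endosome, made up much of this: without them the sums were 719 and 666 CPM in the newborn, 2875 and 4019 CPM in the young and 3692 and 3770 CPM in the old cells.

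In young against newborn cells 4 members rose (Gbp2, Sp100, Ifitm3 and Ifi27), where 0.719% of all genes tested were called higher, and 0 fell, where 0.0599% of all genes were called lower (edgeR quasi-likelihood test, Benjamini-Hochberg threshold 0.05). In old against newborn cells 5 members rose, the same 4 genes and Iigp1, where 0.797% of all genes were called higher, and 0 fell, where 0.138% were called lower. At an unadjusted p under 0.05 there were 24 members in young against newborn, beside 2214 of all 16684 genes, and 25 in old against newborn cells, beside 2537 of all genes. The fitted log2 fold change was above 0 for 39 and 37 of the 41 members, with a median of 2.78 for young against newborn and 2.41 for old against newborn cells, beside -0.07 and -0.08 over all genes tested. With members at 0 reads in an age set to a floor of 3 reads these medians were 2.78 and 2.42. Both young sums lay above both newborn sums for 32 members, where 22.1% of all genes tested did, and below for 0 members, where 25.1% did. Both old sums lay above both newborn sums for 33 members, where 21.6% of all genes did. The young and old comparisons share the newborn sums and are not independent of each other. Within experiment 1, 36 members were higher in young and 35 in old than in newborn cells, and within experiment 2, 38 and 37 were.

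The count of called members depended on single sums and on the test. With the experiment as a block 1 member, Ifitm3, rose in young cells, where 0.144% of all genes were called higher, and 3 (Ifitm3, Sp100 and Gbp2) rose in old cells, where 0.276% were. With 1 sum left out at most 1 member passed in either comparison, and few genes of any kind did. Sp100 alone passed without either newborn sum, where 0.129% and 0.223% of all genes were called higher in young cells and 0.161% and 0.239% in old cells. Gbp2 alone passed in old cells without the young sum of experiment 2, where 0.127% were called higher, and 0 members passed in old cells without the young sum of experiment 1, where 0.0525% were. Without either old sum, and in young cells without either young sum, 0 members and 0 genes in all were called. DESeq2 called 25 members higher in young cells, where 8.99% of all genes were, and 26 in old cells, where 9.38% were. With the test limited to genes that 10% or more of the cells of an age had a read of, edgeR called 13 members in young cells, where 5.35% of these genes were, and 13 in old cells, where 5.57% were. With limma on mean log2(CPM + 1) of these genes 15 members were called in young cells, where 6.54% were, and 17 in old cells, where 5.65% were. With sums per plate 18 members were called in young cells, where 5.65% of genes were, and 18 in old cells, where 5.81% were. With cells thinned to equal reads before summing 9 members were called in old cells, where 1.74% of genes were.

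**Figure D1:**
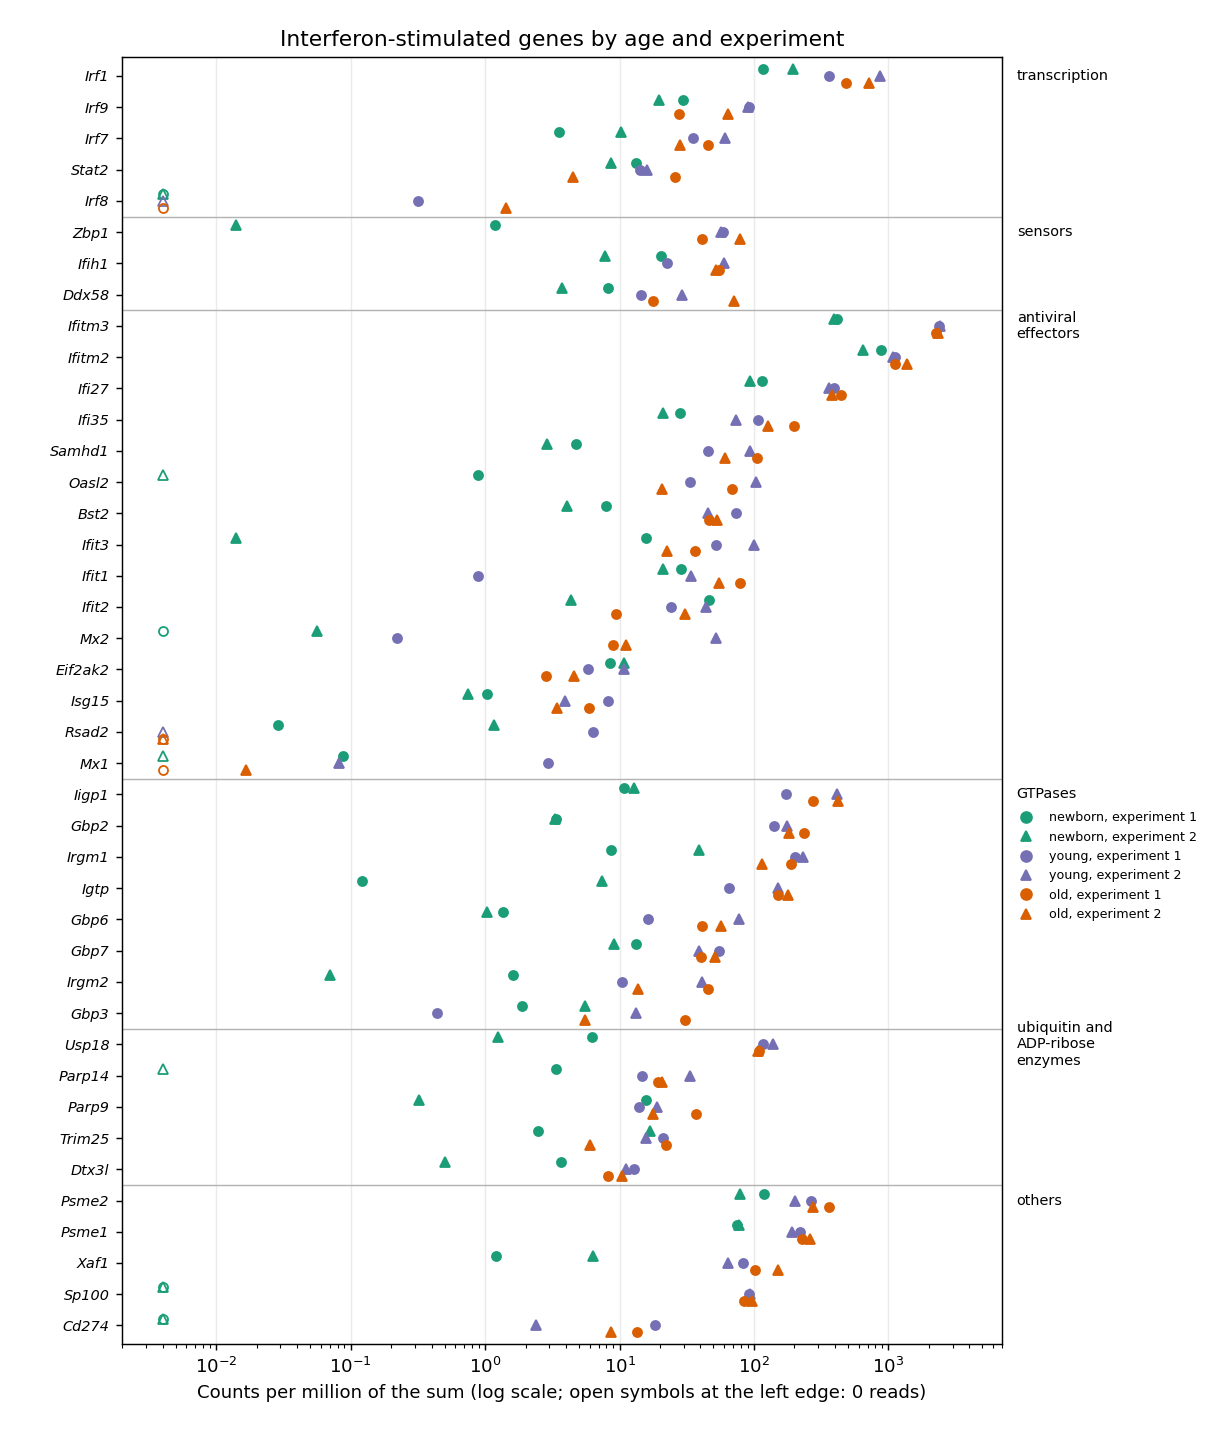
Level of each of the 41 members in each sum of cells (CPM, log axis), grouped by role. Circles are experiment 1 and triangles experiment 2, green newborn, purple young and orange old cells, and open symbols at the left edge are sums with 0 reads. For 32 members both young sums and for 33 members both old sums lie to the right of both newborn sums. Over all genes tested 22.1% and 21.6% do.

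The transcription factors of the pathway were 5 members, none of which passed the test in any comparison. Irf1, the factor induced first by interferon, had the highest level per kilobase of the 5, 154 CPM per kilobase of exon in young and 151 in old cells. It had 117 and 197 CPM in the newborn sums of experiments 1 and 2, 359 and 869 CPM in the young sums and 482 and 718 CPM in the old sums, both adult pairs above the newborn pair (adjusted p = 0.249 for young and 0.216 for old against newborn, edgeR). A read of Irf1 was present in 18.4% and 33.0% of the newborn, 40.1% and 65.4% of the young and 38.9% and 65.8% of the old cells after every cell was thinned to 100000 reads. The share was higher in experiment 2 at every age.

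Irf7, the factor that amplifies type I interferon production, had 3.56 and 10.3 CPM in the newborn, 35.5 and 60.6 CPM in the young and 45.6 and 28.0 CPM in the old sums. The adult sums did not overlap the newborn ones, yet Irf7 was read in few cells, 5 of 249 newborn, 16 of 246 young and 21 of 240 old cells (adjusted p = 0.234 and 0.225, edgeR). Irf9, which gives the complex at the ISRE its DNA contact, had 29.9 and 19.7 CPM in the newborn, 91.2 and 90.8 CPM in the young and 27.8 and 63.6 CPM in the old sums, so that old and newborn sums overlapped. Stat2 had 13.2 and 8.64 CPM in the newborn, 14.1 and 16.0 CPM in the young and 25.9 and 4.50 CPM in the old sums, with old and newborn sums overlapping. Irf8, best known from myeloid cells, was read in 0 newborn cells, 1 young cell and 1 old cell, and the 0 allows up to 1.2% of newborn cells.

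Genes whose counts vary over cells most like Irf7 were named as a description. In young cells these were Irf1, Ifi204, Zfp277, Hnrnpd and Gm10501 with Spearman's rho of 0.236 to 0.254 over 246 cells, and in old cells Flot2, Ccl19-ps1, Ndufs7, Irgm1 and Mrpl36 with 0.222 to 0.234 over 240 cells. All these values are low, and thinning left a read of Irf7 in only 15 young and 20 old cells.

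The 3 cytosolic sensors differed in how far newborn and adult cells were apart. Zbp1, a sensor of left-handed nucleic acid that triggers cell death, had 1.18 and 0.014 CPM in the newborn, 58.5 and 56.8 CPM in the young and 40.9 and 78.8 CPM in the old sums. It was read in 2 of 249 newborn, 38 of 246 young and 40 of 240 old cells, and its level missed the threshold (adjusted p = 0.258 and 0.224, edgeR). Ifih1, the MDA5 sensor of long double-stranded RNA, had 20.3 and 7.81 CPM in the newborn, 22.6 and 59.9 CPM in the young and 55.1 and 51.8 CPM in the old sums. Ddx58, the RIG-I sensor of 5′-triphosphate RNA, had 8.15 and 3.72 CPM in the newborn, 14.4 and 29.2 CPM in the young and 17.9 and 70.5 CPM in the old sums. For all 3 sensors both adult pairs of sums lay above the newborn pair, narrowly for Ifih1 in young cells. Over all genes tested 22.1% did so in young and 21.6% in old cells. Of the 3 sensors 0 passed the test in either comparison.

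Of 15 antiviral effectors, Ifitm3 and Ifi27 rose in both adult ages and 13 did not pass the test. Ifitm3 had 2392 and 2424 CPM in the young and 415 and 391 CPM in the newborn sums, a log2 fold change of 2.58 ± 0.17 (SE, n = 2 sums per age; adjusted p = 0.0105, edgeR). Old sums had 2262 and 2346 CPM, 2.52 ± 0.17 above newborn on the log2 scale (adjusted p = 0.0103). The sums of each age lay close together, and the change was carried by most cells: Ifitm3 was read in 72.8% and 80.2% of the newborn, 97.9% and 100% of the young and 97.6% and 99.1% of the old cells. Ifitm2, its neighbour on chromosome 7, was read in nearly all cells of every age and had 879 and 646 CPM in the newborn, 1117 and 1083 CPM in the young and 1125 and 1363 CPM in the old sums. The adult sums of Ifitm2 lay above the newborn ones by 1.44 times in young and 1.63 times in old cells (adjusted p = 0.43 and 0.249, edgeR). Per kilobase of exon, Ifitm2 was the highest member in newborn cells with 1164 CPM, against 595 for Ifitm3, while Ifitm3 was the highest in young cells (3552, against 1680 for Ifitm2) and in old cells (3398, against 1900). The 2 genes are similar in sequence, and how the counting shared reads between them is not given in the sources used here. The Ifit and Gbp genes also have close paralogs, and their values are uncertain to the same extent.

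Ifi27, a mitochondrial protein strongly induced by type I interferon, had 394 and 361 CPM in the young and 115 and 93.2 CPM in the newborn sums, a log2 fold change of 1.86 ± 0.23 (adjusted p = 0.0481, edgeR), and 440 and 383 CPM in old sums, 1.98 ± 0.23 above newborn (adjusted p = 0.038). It was read in 32.9% and 38.5% of the newborn, 66.9% and 74.0% of the young and 64.3% and 64.0% of the old cells. The young call was lost without the 84 cells that had a read of a macrophage marker (adjusted p = 0.0591) and with stricter cells (adjusted p = 0.0559), where the log2 fold changes were 1.83 and 1.82. With the experiment as a block both calls of Ifi27 were lost (adjusted p = 0.0732 for young and 0.0646 for old, edgeR). Ifi35, an interferon-induced leucine zipper protein, had 28.2 and 20.9 CPM in the newborn, 108 and 73.4 CPM in the young and 197 and 127 CPM in the old sums (adjusted p = 0.157 and 0.0728, edgeR), and its old sums also lay above its young sums. Bst2 (tetherin), which holds budding virus at the cell surface, had 8.00 and 4.07 CPM in the newborn, 73.3 and 45.9 CPM in the young and 46.7 and 53.0 CPM in the old sums (adjusted p = 0.104 and 0.107).

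Isg15, the ubiquitin-like modifier often used as the marker of an interferon response, was read in 3 of 249 newborn, 13 of 246 young and 11 of 240 old cells, at no more than 8.28 CPM in any sum. Ifit1, which binds RNA lacking cap methylation, was read in 4 newborn, 4 young and 11 old cells, and Ifit2 in 13, 16 and 14 cells. Ifit3, Oasl2, a member of the oligoadenylate synthetase family, and Mx2, a dynamin-like GTPase, were higher in both young and both old sums than in the newborn sums. Ifit3 was read in 4 newborn, 32 young and 14 old cells, Oasl2 in 1, 18 and 18 cells and Mx2 in 1, 9 and 9 cells, and each was at 0.014 CPM or less in at least 1 newborn sum. Mx1 was read in 1 newborn, 4 young and 2 old cells. Rsad2 (viperin) was read in 2 newborn cells and 1 young cell and had 0 reads in old cells, which allows up to 1.25% of old cells. Eif2ak2, the kinase PKR that halts translation on double-stranded RNA, had 8.48 and 10.7 CPM in the newborn, 5.81 and 10.7 CPM in the young and 2.84 and 4.61 CPM in the old sums, and was the one member besides Rsad2 with both old sums below both newborn sums, where 25.7% of all genes tested were (adjusted p = 0.629, edgeR). Samhd1, which depletes nucleotides needed for viral DNA, was read in 7 newborn, 41 young and 43 old cells, and its log2 fold change did not pass the test (adjusted p = 0.0838 and 0.0696).

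**Figure D2:**
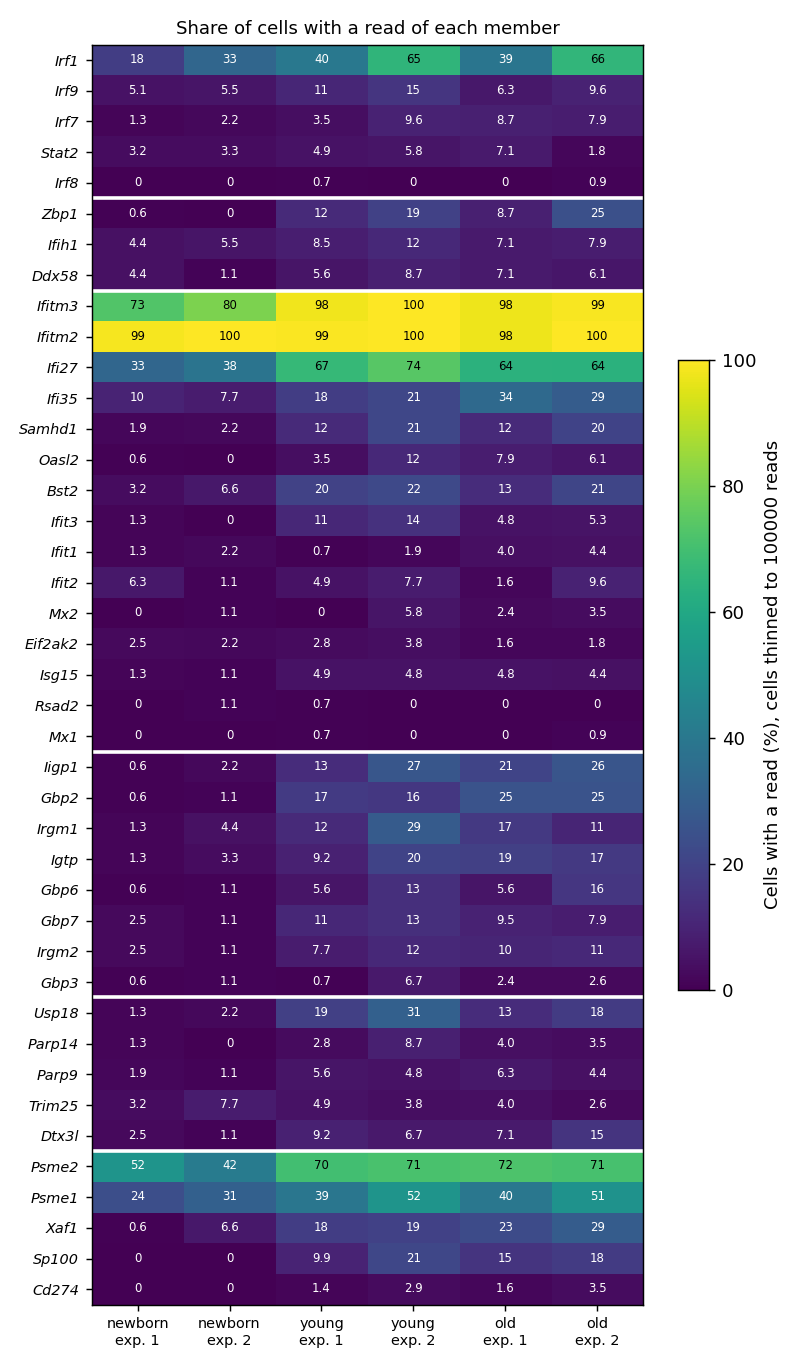
Percent of cells with a read of each member, per age and experiment (columns), after every cell was thinned to 100000 reads. Members are grouped by role in the order transcription factors, sensors, antiviral effectors, GTPases, ubiquitin and ADP-ribose enzymes, and others. Ifitm2 is at 97.6% to 100% in all 6 columns, while 35 of the members are at 10.1% or less in both newborn columns.

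The interferon-inducible GTPases, which attack the membranes around intracellular microbes, were read in a smaller share of newborn than of adult cells. A read of any of the 8 members was present in 5.7% and 8.79% of newborn cells, 50.7% and 58.7% of young cells and 60.3% and 61.4% of old cells (thinned). Gbp2 rose in both adult ages, Iigp1 rose in old against newborn cells, and the other 6 did not pass the test. Both old sums of all 8 lay above both newborn sums, where 21.6% of all genes tested did, and both young sums of 7, where 22.1% did. The median fitted log2 fold change of the group was 4.74 for young and 5.00 for old against newborn cells, beside -0.07 and -0.08 over all genes tested.

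Gbp2, a guanylate-binding protein, had 140 and 176 CPM in the young and 3.35 and 3.29 CPM in the newborn sums, a log2 fold change of 5.58 ± 0.32 (adjusted p = 0.00924, edgeR), and 237 and 183 CPM in old sums, 5.98 ± 0.33 above newborn (adjusted p = 0.00784). All 1160 newborn reads of Gbp2 came from 2 cells, 1 in each experiment, so the close agreement of the newborn sums rests on 2 cells. Reads were present in 44 of 246 young and 62 of 240 old cells. With the experiment as a block the young call was lost (adjusted p = 0.0505).

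Iigp1, a GTPase of the interferon gamma response that lies on chromosome 18, had 275 and 424 CPM in old and 10.8 and 12.8 CPM in newborn sums, a log2 fold change of 4.89 ± 0.57 (adjusted p = 0.0405, edgeR). Young sums had 173 and 413 CPM, 4.64 ± 0.56 above newborn, just short of the threshold (adjusted p = 0.0507). It was read in 5 newborn, 47 young and 58 old cells. The old call was lost with the experiment as a block (adjusted p = 0.058), without the cells that had a read of a macrophage marker (adjusted p = 0.0547) and with the first sequencing run alone (adjusted p = 0.0635, edgeR). The log2 fold change was 4.84, 4.72 and 5.26 in these fits, against 4.89, and thus about as large. Igtp had 0.121 and 7.40 CPM in the newborn, 65.6 and 149.6 CPM in the young and 150.4 and 180.5 CPM in the old sums, and Irgm1 had 8.70 and 38.7 CPM in the newborn, 202 and 230.1 CPM in the young and 189 and 114 CPM in the old sums. The adult sums of both genes lay above the newborn ones, but the newborn pair was wide and neither passed the test (adjusted p = 0.212 to 0.358, edgeR). Igtp and Irgm2 overlap on the same strand of chromosome 11, so reads in the overlap cannot be assigned. Gbp7 had 13.2 and 9.09 CPM in the newborn, 54.7 and 39.0 CPM in the young and 40.2 and 51.0 CPM in the old sums (adjusted p = 0.171 and 0.156). Gbp3 was the one GTPase with young sums, 0.439 and 13.2 CPM, overlapping the newborn sums, 1.87 and 5.52 CPM.

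None of the 5 ubiquitin and ADP-ribose enzymes passed the test. Usp18, which removes Isg15 from proteins and restrains the type I receptor, had 6.29 and 1.25 CPM in the newborn, 117 and 139 CPM in the young and 109 and 106 CPM in the old sums (adjusted p = 0.113 and 0.11, edgeR). It was read in 6 newborn, 63 young and 40 old cells, and was the member of this group with the highest level per kilobase. The other 4 were low at all ages. Parp14, an ADP-ribosyltransferase, had 3.39 and 0 CPM in the newborn, 14.6 and 33.5 CPM in the young and 19.2 and 20.6 CPM in the old sums. Parp9, its family member, had 15.9 and 0.323 CPM in the newborn, 14.1 and 19.0 CPM in the young and 36.8 and 17.7 CPM in the old sums, with young and newborn sums overlapping. Dtx3l, the ubiquitin ligase that partners Parp9, had 3.70 and 0.506 CPM in the newborn, 12.9 and 11.2 CPM in the young and 8.19 and 10.4 CPM in the old sums, and the 2 genes overlap on opposite strands, where a count without strand cannot tell them apart. Trim25, the ligase that activates RIG-I, had 2.48 and 16.8 CPM in the newborn, 21.1 and 15.8 CPM in the young and 22.2 and 6.04 CPM in the old sums and overlapped in every comparison.

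Of the remaining 5 members only Sp100 passed the test. Both adult pairs of sums lay above both newborn sums for all 5, where 22.1% (young) and 21.6% (old) of all genes tested did. Sp100, a component of PML nuclear bodies, had 0 reads in the 249 newborn cells, 91.96 and 93.8 CPM in the young sums and 84.1 and 96.5 CPM in the old sums (adjusted p = 0.00924 and 0.00784 against newborn, edgeR). It was read in 40 young and 43 old cells, while the 0 in newborn cells allows up to 1.2% of them. The young call was lost with the experiment as a block. With the newborn level set to 3 reads over its 2 sums (0.0086 CPM), the young level was 10800-fold and the old level 10500-fold higher. These folds leave out the sampling of cells and are no lower bound. The 40 young cells held 26548 reads, so 1 unsampled newborn cell with Sp100 could hold far more than 3 reads. Psme1 and Psme2, the subunits of the PA28 activator of the proteasome, were read in many cells of every age. Psme1 had 74.9 and 78.0 CPM in the newborn, 222 and 193 CPM in the young and 229 and 261 CPM in the old sums (adjusted p = 0.0848 and 0.0554, edgeR), and Psme2 had 119 and 79.3 CPM in the newborn, 267 and 202 CPM in the young and 364 and 274 CPM in the old sums (adjusted p = 0.234 and 0.129). Xaf1, which favours apoptosis, had 1.20 and 6.39 CPM in the newborn, 83.5 and 64.3 CPM in the young and 101 and 151 CPM in the old sums (adjusted p = 0.166 and 0.117). Cd274 (PD-L1), the checkpoint ligand, was read in 0 newborn, 5 young and 6 old cells, at 2.40 to 18.3 CPM in the adult sums.

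Between old and young cells no member was called higher or lower, where 0% of all genes tested were, and 0 members had an unadjusted p under 0.05, beside 810 of all genes (edgeR). Of the 41 members 21 had a fitted log2 fold change above 0 and 20 below, with a median of 0.01, beside 0 over all genes. Both old sums lay above both young sums for 8 members, where 15% of all genes did, and below for 8 members, where 15.9% did. Those above were Ifit1, Ifitm2, Ifi35, Gbp2, Igtp, Xaf1, Psme1 and Psme2. Those below were Irf9, Ifit3, Mx1, Ifitm3, Eif2ak2, Irgm1, Usp18 and Dtx3l. DESeq2 called 0 members higher in old than in young cells, where 2.53% of all genes were, and 1 member, Rsad2, lower, where 4.14% were. It also called Rsad2 lower in old than in newborn cells, where 9.14% of all genes were, on reads in 3 cells in all.

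Counted over cells, most members were seen in a small share of cells at every age. The median over the 41 members of the share of cells with a read was 1.73% ± 0.66 in newborn, 11.3% ± 3.1 in young and 8.79% ± 1.2 in old cells (SD over 2 experiments, cells thinned to 100000 reads). Only Ifitm2, Ifitm3, Ifi27, Irf1, Psme1 and Psme2 were read in over 18% of newborn cells. That set of 6 was chosen after the values were seen. Cells without a read of any of the other 35 members made up 60.8% and 51.6% of newborn cells, 7.75% and 1.92% of young cells and 12.7% and 5.26% of old cells.

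The number of members with a read in the same cell had a median of 3 and 4 in the newborn, 6 and 8 in the young and 7 and 8 in the old cells (experiments 1 and 2, of 41 members). It was higher in experiment 2 at every age, where cells also had more genes with a read after thinning: 1802 and 2203 genes in the newborn, 1646 and 2049.5 in the young and 1502.5 and 1704 in the old cells. Adult cells thus had more members with a read than newborn cells and fewer genes in all. On each of the 9 plates the mean number was higher in young than in newborn cells and in old than in newborn cells, with plate means of 3.00 to 4.38 in newborn, 6.07 to 9.73 in young and 5.77 to 9.36 in old cells. Old cells had the higher mean on 6 of the 9 plates when set against young cells.

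**Figure D3:**
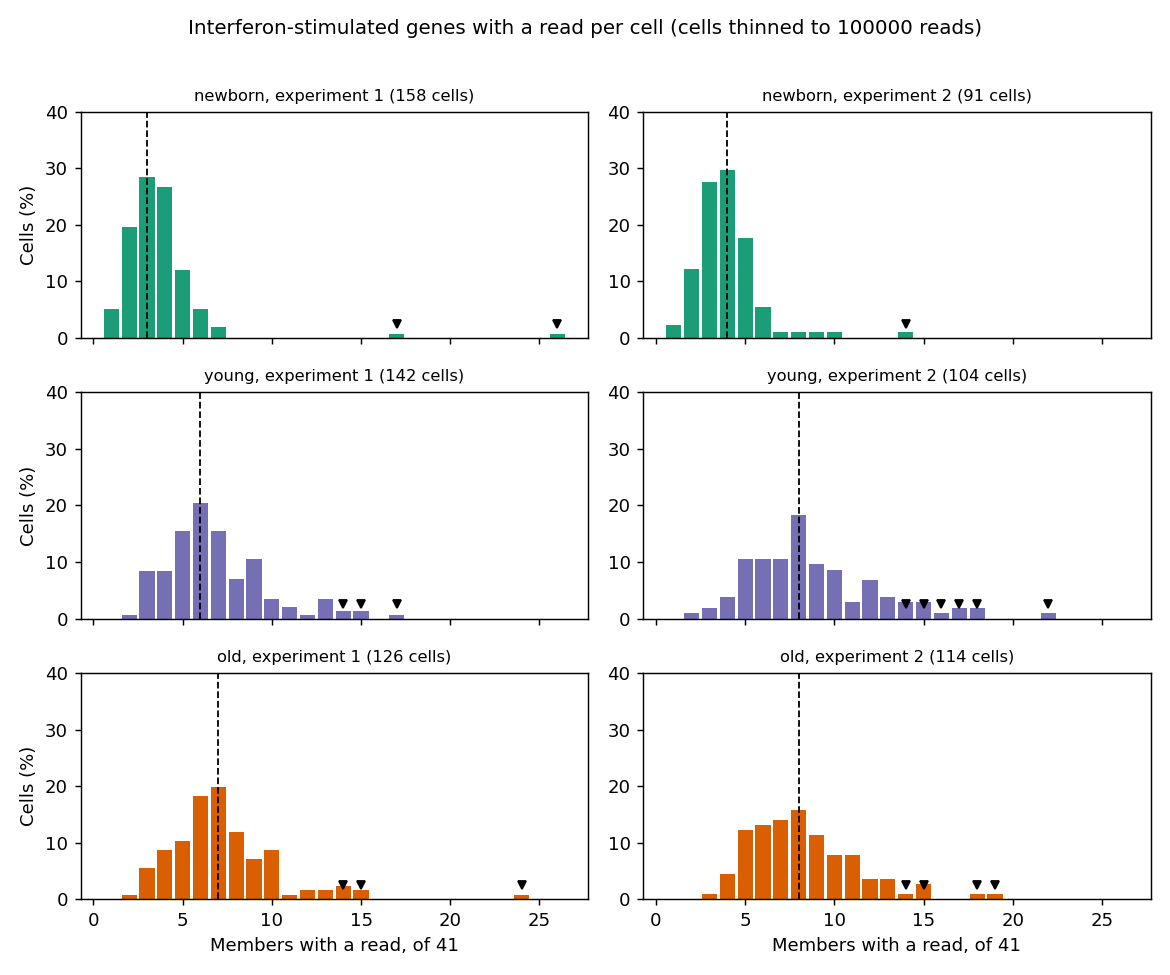
Percent of cells (vertical axis) with each number of the 41 members read (horizontal axis), per age and experiment, with cells thinned to 100000 reads. Dashed lines are medians and black triangles mark occupied bars at 14 or more members. Of 249 newborn cells 243 lie at 1 to 7 members and 3 lie at 14, 17 and 26, while 54 young and 54 old cells lie at 10 or more.

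The spread of this number over cells bears on whether a subset of cells carried the program. In newborn cells 243 of 249 had reads of 7 or fewer members, and 3 cells stood apart with 26, 17 and 14 members, the first 2 on different plates of experiment 1 and the third in experiment 2. The next newborn cells had 10, 9 and 8. In young cells every number from 2 to 18 occurred, with 1 further cell at 22. In old cells every number from 2 to 15 occurred, with single cells at 18, 19 and 24. Reads of 10 or more members were found in 4 of 249 newborn, 54 of 246 young and 54 of 240 old cells, so that many adult cells held a part of the list. Single adult cells also stood apart within their experiment. In experiment 1 an old cell had 24 members and the next old cells 15. In experiment 2 a young cell had 22 members and the next young cells 18. By this count no larger separate group of adult cells stood out.

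The 3 newborn cells were picked for their number of members, so their member levels are a description only. The cell with 26 members gave 3.03% of its reads to the 41 genes, where the median was 0.202% over newborn, 0.526% over young and 0.617% over old cells. Such shares were not particular to newborn skin: a young cell with 18 members gave 2.21% and an old cell with 19 members 2.65%. That old cell had 6304 CPM of Iigp1, 3879 of Ifit1, 2008 of Gbp2 and 1807 of Ifit3. The newborn cell with 26 members had 6171 CPM of Ifit1, 3457 of Ifit3, 2455 of Iigp1, 764 of Gbp2, 460 of Irf7 and 404 of Ifih1, with Ifit genes and GTPases alike. The cell with 17 members had 1553 CPM of Usp18, 577 of Ifih1, 407 of Ifit1, 382 of Irf7 and 221 of Oasl2, with 0 reads of Gbp2, Iigp1 and Ifit3. The cell with 14 members had 1126 CPM of Iigp1, 791 of Ifit1, 348 of Gbp2 and 8679 of the chemokine gene Cxcl10, with 0 reads of Irf7, Usp18 and Ifih1. The 3 cells thus differed in which members they held, while Isg15, Ifit1 and Dtx3l were among those read in all 3. All 3 carried Nrep (1057 to 2017 CPM) and Gpc3 (652 to 2535 CPM), genes with medians of 1054 and 2191 CPM over newborn and 0 over adult cells, and had 0 reads of Ccl11, a gene with medians of 0 CPM over newborn, 1362 over young and 2751 over old cells. They had Dcn at 6759 to 24650 CPM, and the cell with 17 members had 2.40 CPM of the macrophage marker Csf1r. Ptprc, Pecam1 and Epcam had 0 reads in them. Ptprc was read in no cell, Pecam1 in 1 newborn and 2 young cells and Epcam in 2 newborn cells. Such zeros say little about cell type. The depth of the 3 cells, 832422 to 1345080 reads, lay within the range of the other cells. Their 2879, 3177 and 3050 genes with a read exceeded the newborn medians of 2192.5 and 2746 (experiments 1 and 2). In newborn cells the number of members went with the number of genes (rho 0.405 and 0.25), whose part here was not tested.

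These 3 cells, picked for their number of members, held most newborn reads of some members that were read in few newborn cells. Of the broadly read Ifitm2, Irf1, Psme1 and Psme2 they held 1.53%, 4.43%, 3.19% and 2.09%. They held all newborn reads of Gbp2, Isg15, Parp14, Oasl2 and Mx1, 95.7% of those of Ifit3, 93.3% of Irgm2, 92.4% of Iigp1, 87.5% of Usp18, 84.3% of Dtx3l and 78.5% of Ifit1. Over the 37 members with at least 10 newborn reads the median share held by them was 24.7%, and 12 members had over 50% of their reads there. The 3 cells with most members held a median of 1.84% in young and 2.52% in old cells, with 0 and 2 members over 50%. Without them the newborn level was 0 CPM, against 3.98 with them, for Gbp2, 1.07 against 13.9 for Iigp1, 6.66 against 30.6 for Ifit1 and 0.638 against 5.07 for Usp18, all in CPM before TMM scaling. It was 451.5 against 485 for Ifitm3 and 127.5 against 127.4 for Ifi27, which many newborn cells expressed.

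**Figure D4:**
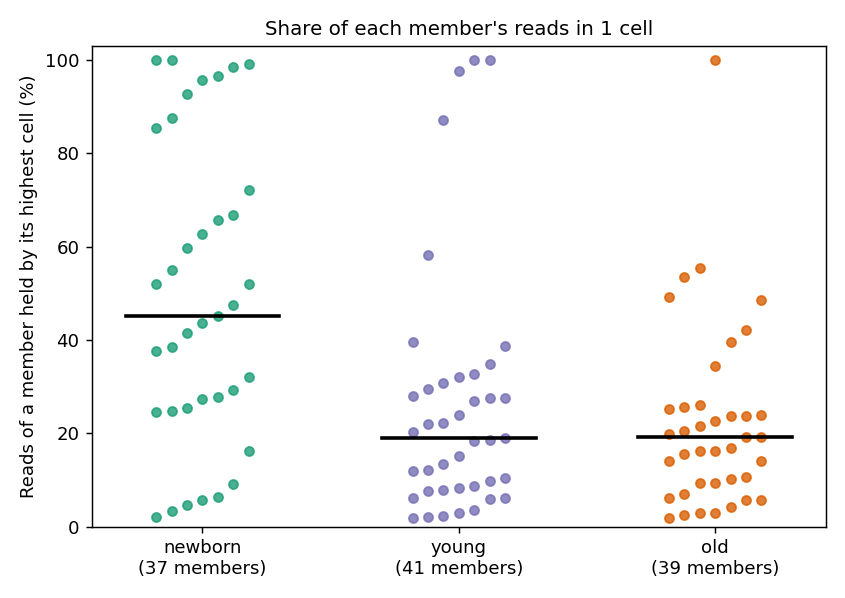
Percent of a member's reads that came from its single highest cell (vertical axis), for the members with at least 10 reads at each age. Points are members and black bars medians, 45.0% in newborn, 19.0% in young and 19.1% in old cells. In newborn cells 17 members have over 50% of their reads in 1 cell, against 5 in young and 3 in old cells.

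In adult cells single members were also concentrated, though over more cells. The highest cell held a median of 45.0% of a member's reads in newborn, 19.0% in young and 19.1% in old cells. Reads of members in the same cells were only weakly related: between members read in at least 10% of cells the median Spearman's rho was 0.0437 and 0.0815 in young cells (153 and 276 pairs of genes, experiments 1 and 2) and 0.067 and 0.0363 in old cells (136 and 190 pairs), beside 0.00926 and 0.00798 (young) and 0.00869 and 0.00627 (old) over pairs of all genes so read. The pairs share cells and libraries, and the number of members with a read also went with the number of genes with a read in the cell (rho 0.369 to 0.483 in the adult groups). The highest pairs in experiment 2 were Irgm1 with Igtp in young (0.521) and Irgm2 with Igtp in old cells (0.457), the second a pair of overlapping genes. In experiment 1 they were Ifi35 with Zbp1 in young (0.362) and again Irgm2 with Igtp in old cells (0.358). Cells with a read of a macrophage marker had a mean of 6.2 members in 5 newborn cells, against 3.75 in 244 without one. The median was 4 in both newborn groups, and the 5 cells included the cell with 17 members. In young cells the means were 7.56 in 55 cells with such a read and 7.73 in 191 without, and in old cells 7.83 in 24 and 7.71 in 216.

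The rest of the pathway was read as lists chosen with the members. All 11 interferon ligands, among them Ifnb1, Ifng and Ifnk, had 0 reads, which over 735 cells allows a read of each in up to 0.408% of cells. Of 9 receptors and kinases 8 were tested and 0 called in any comparison. Over all genes tested 0.719% were called higher in young and 0.797% in old against newborn cells, so 0 calls in a short list say little. Both old sums lay above both newborn sums for 6 of the 9, where 21.6% of all genes tested did. Both young sums did for 4, where 22.1% of all genes did. Ifngr1, the binding chain of the interferon gamma receptor, had 62.8 and 107 CPM in the newborn, 440 and 550 CPM in the young and 442 and 434 CPM in the old sums (adjusted p = 0.0598 for young and 0.0677 for old, edgeR). Ifnar1, a chain of the type I receptor, had 42.0 and 26.7 CPM in the newborn, 16.3 and 46.1 CPM in the young and 58.1 and 15.4 CPM in the old sums, overlapping at all ages. Of 7 genes of signalling and restraint 6 were tested and 0 called, beside the same shares of all genes called. Socs1, a feedback inhibitor, had 12.6 and 15.5 CPM in the newborn, 52.5 and 49.9 CPM in the young and 59.2 and 50.3 CPM in the old sums (adjusted p = 0.141 and 0.115). Of 15 matched genes of nucleic acid sensing 13 were tested and 0 called, again beside those shares.

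Of 55 other interferon-induced genes 44 were tested. In young against newborn cells 4 rose, where 0.719% of all genes tested were called higher, and 0 fell, where 0.0599% were called lower. The same 4 rose in old against newborn cells, where 0.797% were called higher, and 0 fell, where 0.138% were called lower. The 4 genes were Psmb8 and Psmb10, catalytic subunits of the immunoproteasome, Lgals9, the lectin galectin-9, and the GTPase gene Tgtp2. Psmb8 had 6.27 and 3.94 CPM in the newborn, 359 and 405 CPM in the young and 528 and 532 CPM in the old sums (adjusted p = 0.00961 and 0.00784, edgeR), and Lgals9 had 28.5 and 40.3 CPM in the newborn, 434 and 731 CPM in the young and 572 and 765 CPM in the old sums (adjusted p = 0.0338 and 0.028). The median fitted log2 fold change of the 44 genes was 4.01 for young and 3.60 for old against newborn cells, beside -0.07 and -0.08 over all genes tested. Ifitm1, the neighbour of Ifitm2 and Ifitm3, ran the other way with 237.5 and 283 CPM in the newborn, 2.93 and 45.7 CPM in the young and 25.9 and 3.95 CPM in the old sums, without passing the test (adjusted p = 0.44 and 0.317). Oas2, Oas3, Oasl1, Ifi44, Ifi44l, Epsti1 and Ciita had 0 reads in all cells.

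Dissociation of tissue can itself induce genes, and its markers are given beside the members. Fos, Jun, Egr1 and Hspa1a together stood at 4740 to 4850 CPM in newborn, 7920 to 11600 CPM in young and 8270 to 9620 CPM in old sums, and their part in the levels of Irf1 and other members was not tested. The share of wells kept also differed, with 249 wells of 256 in newborn, 246 of 287 in young and 240 of 318 in old skin, and its part in the results was not tested.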

How the data were processed

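The authors deposited raw read counts per gene and cell, with a table for each plate. GRCm38 and FastQC are named in the submitters' processing notes, while the sources used here do not give the aligner, counter or strand setting. Of the values above 0, 75.2% were even, as when both ends of a read pair are counted. Of 1049 columns 5 held no value; 2 pairs of tables were 1 plate sequenced in 2 runs (median r at least 0.994, against at most 0.431) and were added, leaving 861 wells on 9 plates. Symbols and positions came from GENCODE M21 by identifier. Cells were kept with at least 50000 reads, 1000 genes and at most 25% mitochondrial reads. No doublet caller was run on these singly sorted cells.

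Sums per age and experiment were tested with edgeR 4.0.16 in R 4.3.3 (TMM scaling, filterByExpr, quasi-likelihood with robust estimates, 1 model of age over all 6 sums, 3 residual degrees of freedom). The Benjamini-Hochberg adjustment ran over all 16684 genes tested, and SE is the log2 fold change over the root of F. CPM are counts per 1000000 TMM-scaled reads. Alternatives used DESeq2 1.42.0 and limma 3.58.1. The fits were tested on simulated counts. The experiment number is a batch given by the labels and pairs the ages; deviations of same-numbered sums correlated at 0.0266 (young and newborn), 0.0192 (old and newborn) and 0.0387 (old and young). All 41 members could be named; values per sum were given for members past the threshold, the 5 of each role with the highest level per kilobase, and those at 0 reads in an age, with others chosen after their values were seen. Members and lists were chosen with earlier results of these data known. Mb21d1 and Sting1 were not matched by those symbols.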

Additional observations from a re-analysis of the deposited data

How the results depend on the processing

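The direction of the 4 fitted log2 fold changes printed (Ifitm3, Gbp2, Ifi27 and Iigp1, each adult age against newborn) held in all 17 alternatives, but not their size. With sums per plate the log2 fold change of Gbp2 was 10.4 in young and 11.2 in old cells and that of Iigp1 8.22 and 8.63. Gbp2 was read in 2 and Iigp1 in 5 newborn cells over 9 plates, so some newborn plate sums had 0 reads of them. With the same plate sums Ifitm3 had 2.51 and 2.48 and Ifi27 1.86 and 1.97, close to the main fit. With limma, on the scale of a mean over cells of log2(CPM + 1), the differences were 1.44 and 2.29 for Gbp2, 1.78 and 2.16 for Iigp1, 3.97 and 4.01 for Ifitm3 and 3.19 and 2.84 for Ifi27. The number of members called did not hold across the alternatives. In young against newborn cells 4 members were called higher, against 25 with DESeq2, 13 among genes read in at least 10% of cells of an age, 15 with limma on mean log2(CPM + 1), 18 with sums per plate and the plate as a block, and 1 with the experiment as a replicate block; without 1 sum the count ranged from 0 to 1. In old against newborn cells 5 were called higher, against 26, 13, 17, 18 and 3 under the same alternatives and 9 with cells thinned before summing; without 1 sum it ranged from 0 to 1. DESeq2 called 1 member lower in old against newborn and 1 in old against young cells, where edgeR called 0. The cause was not tested, except that leaving out a sum leaves an age with 1 sum, assumed to vary like the others. The replicate block changed no other count of members. With 1 experiment left out, the median share of cells with a read ranged from 1.27% to 2.2% in newborn, 9.15% to 13.5% in young and 7.94% to 9.65% in old cells, and the median number of members per cell from 3 to 4, 6 to 8 and 7 to 8. Thinning depth, stricter cells and leaving out cells with a macrophage read moved these medians by less than the spread between experiments. Plates are not shown to hold other mice, so counts from plate sums may overstate the evidence.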
